A study of Solanum lycopersicum with 12 samples.

Results

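The malic enzymes and malate dehydrogenases of tomato (Solanum lycopersicum) were followed as transcripts on a tomato genome array, and all probe sets that the array annotation of 2007 pairs with the symbols ME1, ME2, gMDH, mMDH1, chMDH, cMDH and mdh were taken. The rule found 8 probe sets for these 7 genes among 10038 tomato probe sets, of which 909 carried one of 802 gene symbols. Of the 8, 2 belong to malic enzymes and 6 to malate dehydrogenases, since mMDH1 has 2 probe sets. The second mMDH1 probe set is of a design whose probes match several transcripts, so its signal cannot be assigned to mMDH1 alone and it is called the shared mMDH1 probe set here.

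The study asked how seed treatment with Trichoderma harzianum, a root-colonising beneficial fungus, alters gene expression in the shoot, and how a foreign acetamidase gene in the fungus changes that response. The 12 arrays formed 4 groups of 3. Control plants grew from untreated seeds, whereas the other groups grew from seeds coated with spores of the wild-type strain T34, of the transformant amdS6 or of the transformant amdS122. Both transformants derive from T34 and carry the Aspergillus nidulans amdS gene, which encodes an acetamidase, under the constitutive gpdA promoter of A. nidulans, and each is a single monosporic isolate. By the methods of the study they differ in the copies of the cassette, with 1 in amdS6 and 2 in amdS122, so copy number and isolate cannot be told apart. All plants, controls included, were of the cultivar Marmande, were grown in autoclaved loamy soil in a greenhouse and were sampled when 3 weeks old. The labels give the sampled material as aerial parts and the tissue as leaves, and each array held RNA pooled from 5 plants.

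Malic enzyme decarboxylates malate to pyruvate and carbon dioxide and, in its NADP-dependent form, releases NADPH. Malate dehydrogenase interconverts malate and oxaloacetate, and plants keep separate forms in several compartments. The mitochondrial form works in the tricarboxylic acid (TCA) cycle, the chloroplast form exports reducing power as malate, the glyoxysomal or peroxisomal form serves fatty acid oxidation and photorespiration, and the cytosolic form takes part in malate shuttles. In leaves malate is also a store of carbon, a counter-ion during nitrate assimilation and an osmoticum of guard cells.

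Values are log2 signals, so a difference of 1 is a change of 2-fold, and array medians lay between 7.80 and 7.87. A probe set was scored as higher or lower when the adjusted p was under 0.1, and as called when it also changed at least 2-fold, which are the limits of the study. The 5 green leaf markers CAB4, CAB5, CAB6A, PSBO and PSBR read between 14.01 and 14.40 on every array, close to the highest signal of 14.74, which leaves the labelled tissue in no conflict with the data. Of the 4 root markers, ext1 and PT2 stayed between 3.60 and 4.65 and PT1 and TIP between 7.22 and 8.69. Control tag probe sets, for which the sample holds no target, reached 4.95 to 5.23, so ext1 and PT2 lay at the level of background. The mean of the 4 root markers was 6.11 to 6.23 in controls, 6.24 to 6.28 with T34, 5.72 to 5.76 with amdS6 and 5.66 to 5.72 with amdS122. The signal of 3′ over 5′ control probe sets, a measure of RNA integrity and of labelling, was 3.17 ± 0.055 in controls, 3.03 ± 0.047 with T34, 2.89 ± 0.069 with amdS6 and 2.70 ± 0.12 with amdS122 (SD, n = 3). The part of these shifts in the results below was not tested. For some results a fit with the 3′ over 5′ signal as a covariate is given. That signal followed the groups, at 3.12 to 3.22 in controls, 2.99 to 3.08 with T34, 2.82 to 2.96 with amdS6 and 2.62 to 2.84 with amdS122. Such a fit therefore cannot separate it from the treatment. A difference that does not pass there is not thereby assigned to RNA integrity or labelling. In bulk tissue fewer cells of a type and less RNA per cell cannot be told apart.

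ME2 was the member that moved most, and it moved in opposite directions with the wild-type fungus and with its transformants. In control plants ME2 read 10.81, 10.85 and 10.88 on the 3 arrays. With T34 it read 11.13, 11.17 and 11.23. With amdS6 it read 10.36, 10.29 and 10.37, and with amdS122 10.11, 10.24 and 10.31. Every T34 array thus lay above every control array and every transformant array lay below, while the ranges of the transformants overlapped each other. Such separation was common on these arrays. Against controls it held for 24.7% of all probe sets with T34, 53.1% with amdS6 and 53.8% with amdS122. It held for 46.1% between the transformants and for 30.6% with both transformants together against T34. The separations of other members below stand beside these shares. ME2 was 1.26-fold higher with T34 than in controls (log2 difference 0.33, 95% confidence interval 0.21 to 0.45, adjusted p = 0.0036). It was 1.42-fold lower with amdS6 (log2 difference -0.51, interval -0.62 to -0.39, adjusted p = 1.5e-05) and 1.55-fold lower with amdS122 (log2 difference -0.63, interval -0.75 to -0.51, adjusted p = 1.9e-06).

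Set directly against T34, ME2 was 1.86-fold lower in the mean of both transformants, which is a fall of 46.3% (log2 difference -0.90, interval -1.0 to -0.80, adjusted p = 2.0e-08). The fall was 1.79-fold for amdS6 alone and 1.94-fold for amdS122 alone. Between the transformants ME2 differed by -0.12 (amdS122 minus amdS6, interval -0.24 to -0.01), which missed the adjusted threshold (adjusted p = 0.107). It passed with the replicate number as a block (adjusted p = 0.070), the 3′ over 5′ covariate (-0.23, adjusted p = 0.036) or spike scaling (-0.40, adjusted p = 0.016). A variance trend, array weights or leaving out the dimmest probe sets also gave a pass (adjusted p of 0.056 to 0.074). The threshold was missed with only the groups compared (adjusted p = 0.166), median centring (0.254) and further quantile normalization (0.126). Under spike scaling the median of all probe sets was itself -0.26, and ME2 stood at -0.14 relative to that median. The range of the 4 group means of ME2 was 0.96, and 3.95% of all probe sets had a wider one. Among all probe sets 2.62% changed by more than ME2 did between T34 and control, and 2.34% between the transformants and T34. With the 3′ over 5′ signal as a covariate the ME2 differences were 0.25 for T34 (adjusted p = 0.043), -0.66 for amdS6 and -0.89 for amdS122. The root marker mean shown above was also lower in both transformants, and its part in the fall of ME2 was not tested. Of the markers in that mean, ext1 and PT2 lay at the level of background. PT1 was also among the probe sets chosen below for the highest correlation with ME2, so the mean is not independent of ME2.

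ME1, the other malic enzyme gene, did not follow ME2. It read 12.19, 12.23 and 12.24 in controls and 12.15, 12.18 and 12.27 with T34. With amdS6 it read 12.51, 12.36 and 12.44, and with amdS122 12.27, 12.36 and 12.33. The arrays with amdS6 all lay above the controls and above T34, and those with amdS122 lay between, overlapping amdS6. ME1 was 1.16-fold higher with amdS6 than in controls (log2 difference 0.22, interval 0.11 to 0.33, adjusted p = 0.0039). With amdS122 the difference from controls was 0.10 (interval -0.01 to 0.21, adjusted p = 0.118), and with T34 it was -0.02 (interval -0.13 to 0.09), and neither passed. The amdS122 difference passed with arrays centred on their median (adjusted p = 0.082), further quantile normalization (0.032), a variance trend (0.042), array weights (0.064) or the dimmest probe sets left out (0.083). It missed with the replicate number as a block (0.128), only the groups compared (0.109) and spike scaling (0.62). Against T34, the mean of both transformants was 0.18 higher (adjusted p = 0.0059), whereas the difference of -0.12 between amdS122 and amdS6 missed the threshold (adjusted p = 0.101). With the 3′ over 5′ covariate the ME1 differences were 0.10 with amdS6 (adjusted p = 0.47), -0.10 with amdS122 (adjusted p = 0.72) and 0.08 for the transformants against T34 (adjusted p = 0.51), none of which passed. The difference between amdS122 and amdS6 did pass with that covariate (-0.20, adjusted p = 0.066), as with spike scaling (0.017), a variance trend (0.029) or the dimmest probe sets left out (0.068). It missed with the replicate number as a block (0.111), only the groups compared (0.143), median centring (0.249), further quantile normalization (0.147) and array weights (0.121).

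**Figure D1:**
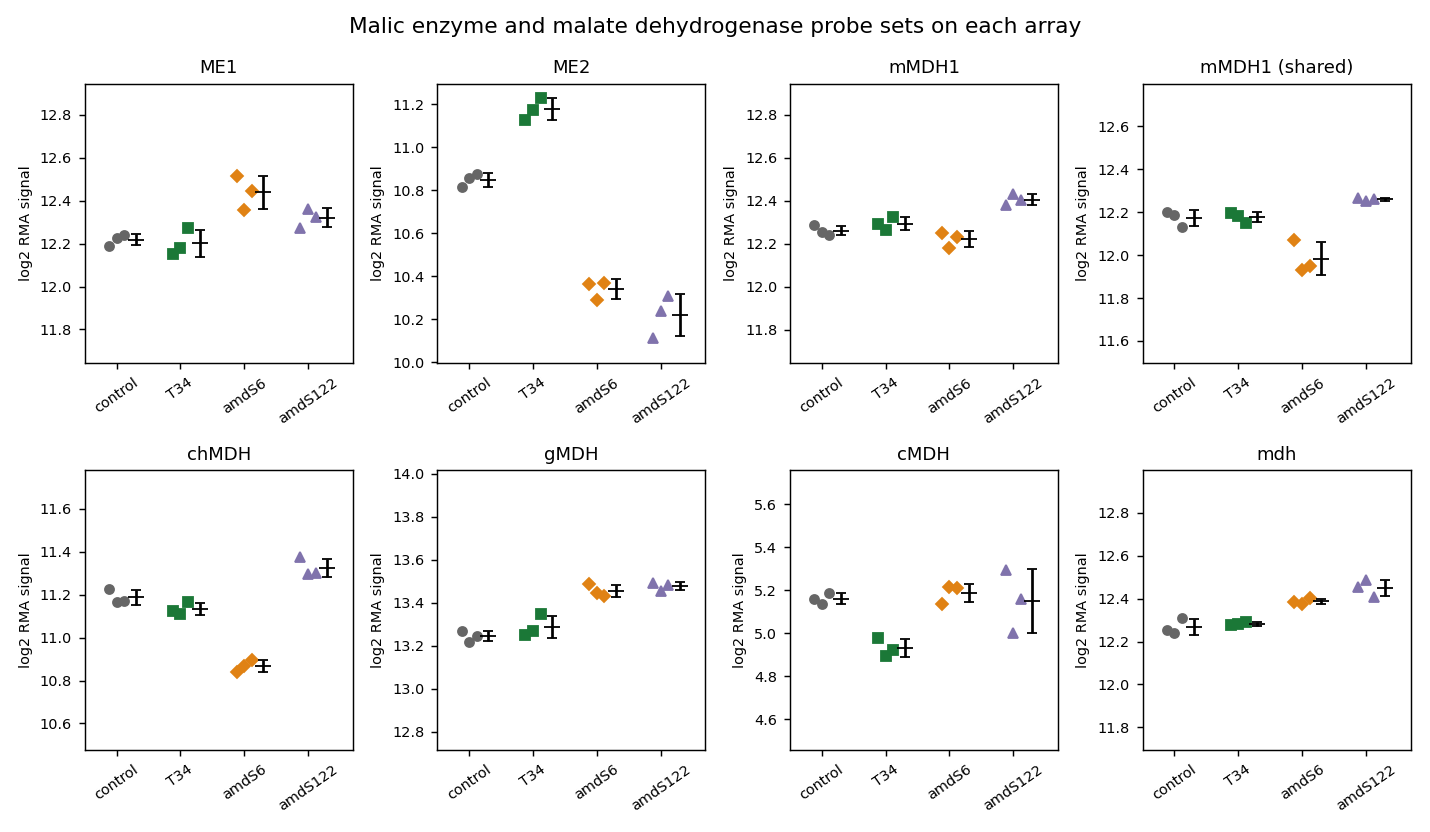
Log2 RMA signal of the 8 probe sets in each of the 12 arrays, with 1 panel per probe set and the same span of 1.3 log2 units on every vertical axis; points are arrays, and the black marks are group means ± SD (n = 3). ME2 ran from 11.18 on average with T34 to 10.22 with amdS122, chMDH was lowest with amdS6 (10.87), and cMDH alone sat near 5.

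Because ME1 and ME2 were read on the same arrays, a shift common to all probe sets of an array cancels in the difference ME2 minus ME1. Adjustments that vary with signal level, such as quantile normalization, do not cancel in this difference. Relative to the control mean this difference was 0.35, 0.36 and 0.33 with T34. It was -0.78, -0.70 and -0.70 with amdS6, and -0.79, -0.76 and -0.65 with amdS122, with SDs of 0.0067 in controls and 0.017, 0.044 and 0.075 in the T34, amdS6 and amdS122 groups. The balance of ME2 to ME1 signal thus stood on one side of the controls with T34 and on the other with both transformants, and the transformant means of -0.73 and -0.73 coincided. This difference was chosen after the values of ME2 were seen and is given as a description, with no test.

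**Figure D2:**
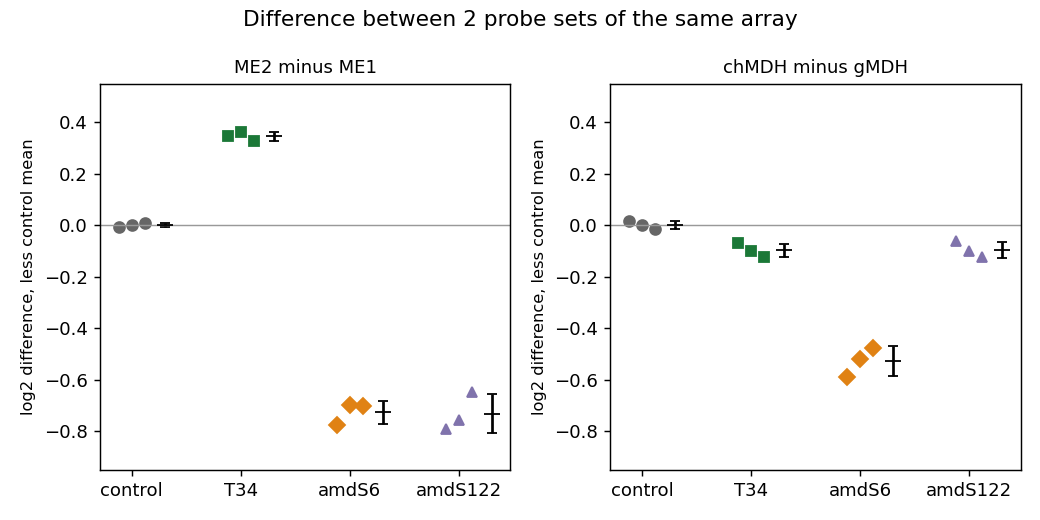
Within-array log2 difference between 2 probe sets, less its control mean, for ME2 minus ME1 (left) and chMDH minus gMDH (right); points are arrays and black marks are group means ± SD (n = 3). ME2 minus ME1 lay near 0.35 with T34 and near -0.73 with both transformants, whereas chMDH minus gMDH fell to -0.53 with amdS6 and stayed near -0.10 with T34 and amdS122.

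Among the malate dehydrogenases, chMDH, the chloroplast form, varied most, and it separated the transformants from each other. It read 11.23, 11.16 and 11.17 in controls and 11.12, 11.11 and 11.17 with T34. With amdS6 it read 10.84, 10.87 and 10.90, and with amdS122 11.37, 11.30 and 11.30. The amdS6 arrays were the lowest and the amdS122 arrays the highest of all, and controls and T34 overlapped. chMDH was 1.25-fold lower with amdS6 than in controls (log2 difference -0.32, interval -0.41 to -0.23, adjusted p = 6.3e-05) and 1.10-fold higher with amdS122 (log2 difference 0.14, adjusted p = 0.015). Between the transformants it was 1.37-fold higher with amdS122 (log2 difference 0.46, interval 0.37 to 0.54, adjusted p = 5.6e-06), a size that 5.71% of all probe sets exceeded. Since the transformants lay on opposite sides, their mean differed from T34 by only -0.04 (interval -0.11 to 0.04, adjusted p = 0.43). Each of them differed from T34 when taken alone, with amdS6 at -0.27 and amdS122 at 0.19. With the 3′ over 5′ covariate chMDH stayed lower with amdS6 than in controls (-0.23, adjusted p = 0.044) and higher with amdS122 than with amdS6 (0.52, adjusted p = 0.00013), whereas amdS122 against controls no longer passed (0.28, adjusted p = 0.13).

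The mitochondrial form mMDH1 was likewise highest on average with amdS122 and lowest with amdS6, at a smaller size. The first mMDH1 probe set read 12.29, 12.26 and 12.24 in controls, 12.29, 12.26 and 12.32 with T34, 12.25, 12.18 and 12.23 with amdS6, and 12.38, 12.43 and 12.40 with amdS122. The amdS122 arrays lay above all others, 1.10-fold above the controls (log2 difference 0.14, adjusted p = 0.0089) and 1.14-fold above amdS6 (0.18, interval 0.10 to 0.27, adjusted p = 0.0031). The difference of -0.04 between amdS6 and control did not pass (interval -0.12 to 0.04). On the shared mMDH1 probe set the arrays with amdS6 read 12.07, 11.93 and 11.95, against 12.20, 12.19 and 12.13 in controls. That probe set gave 12.20, 12.18 and 12.15 with T34 and 12.27, 12.25 and 12.26 with amdS122. Here the amdS6 arrays lay below and the amdS122 arrays above all control and T34 arrays. The fall with amdS6 was 1.14-fold (log2 difference -0.19, adjusted p = 0.0045), and the difference of 0.09 with amdS122 missed the threshold (adjusted p = 0.137). The amdS122 difference passed with further quantile normalization (adjusted p = 0.025), a variance trend with robust moderation (0.060) or the dimmest probe sets left out (0.093). It missed with the replicate number as a block (0.115), only the groups compared (0.146), median centring (0.131), array weights (0.110), spike scaling (0.68) and the 3′ over 5′ covariate (0.84). Both probe sets placed amdS122 above amdS6, the shared one by 0.28 (interval 0.18 to 0.37). With the 3′ over 5′ covariate, mMDH1 with amdS122 differed from controls by 0.08 (adjusted p = 0.74) and the shared probe set with amdS6 by -0.21 (adjusted p = 0.12), and neither passed.

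gMDH, the glyoxysomal form, rose with both transformants. It read 13.27, 13.22 and 13.25 in controls, 13.25, 13.27 and 13.35 with T34, 13.49, 13.45 and 13.43 with amdS6, and 13.49, 13.46 and 13.48 with amdS122. All 6 transformant arrays lay above the 6 other arrays. The rise over controls was 1.16-fold with amdS6 (log2 difference 0.21, adjusted p = 0.0013) and 1.17-fold with amdS122 (0.23, adjusted p = 0.00051), and the transformants differed by 0.02 (interval -0.06 to 0.11). With T34 the difference from controls was 0.04 (interval -0.04 to 0.13) and did not pass. Neither rise passed with the 3′ over 5′ covariate, although their sizes changed little (0.20 with amdS6, adjusted p = 0.101, and 0.22 with amdS122, adjusted p = 0.29).

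mdh, a malate dehydrogenase for which the annotation names no compartment, moved in the same way as gMDH but less. Its signals were 12.25, 12.24 and 12.31 in controls and 12.27, 12.28 and 12.29 with T34. They were 12.38, 12.38 and 12.40 with amdS6 and 12.45, 12.49 and 12.41 with amdS122. Again no transformant array overlapped a control or T34 array. The differences from controls were 0.12 with amdS6 (adjusted p = 0.025) and 0.18 with amdS122 (adjusted p = 0.0020), and that between the transformants was 0.06 (interval -0.02 to 0.15, adjusted p = 0.25). Neither difference from controls passed with the 3′ over 5′ covariate, although their sizes changed little (0.11 with amdS6, adjusted p = 0.33, and 0.17 with amdS122, adjusted p = 0.39).

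cMDH, the cytosolic form, gave signals at the level of background. It read 5.16, 5.14 and 5.19 in controls, 4.98, 4.90 and 4.92 with T34, 5.14, 5.21 and 5.21 with amdS6, and 5.30, 5.00 and 5.16 with amdS122. The 17 control tag probe sets, for which the sample holds no target, reached 4.95 to 5.23 on the same arrays. The lower values with T34 passed the adjusted threshold (log2 difference -0.23, interval -0.37 to -0.09, adjusted p = 0.058) but rest on signals of this size, and they missed it when any control array, T34 replicate 2 or T34 replicate 3 was left out (adjusted p of 0.11 to 0.16, log2 difference -0.24 to -0.21).

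**Figure D3:**
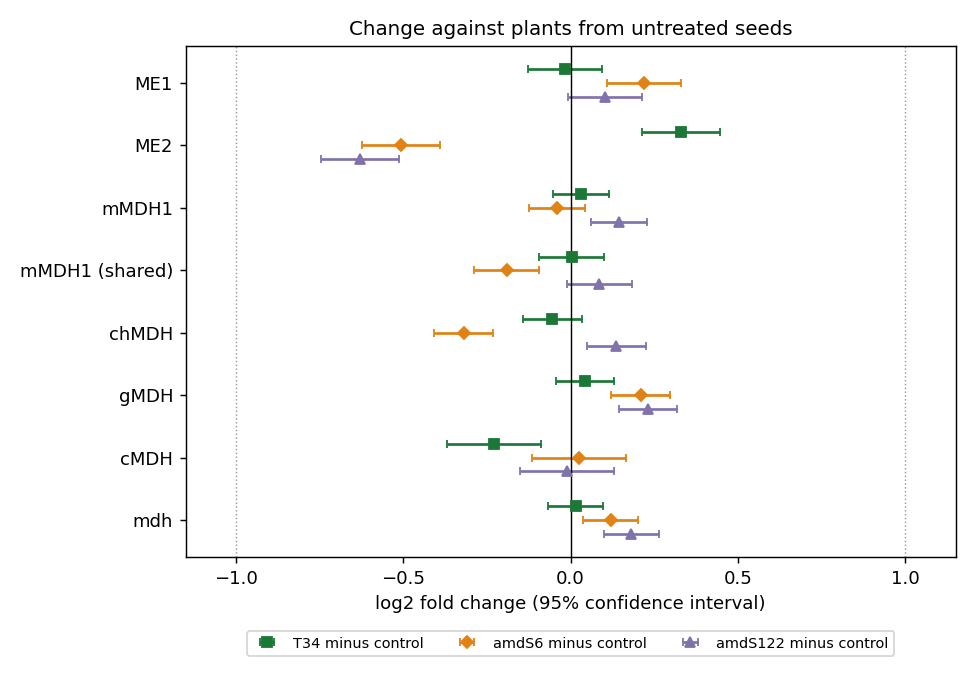
Log2 fold change of the 8 probe sets against plants from untreated seeds, for T34, amdS6 and amdS122, with 95% confidence intervals; the dotted lines mark 2-fold. ME2 was the only probe set whose intervals lay on opposite sides of 0 for T34 (0.33) and the transformants (-0.51 and -0.63), and no interval reached 2-fold.

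Over the 4 groups all 8 probe sets passed the moderated F test at the adjusted p, from ME2 (F = 140, adjusted p = 7.9e-08) and chMDH (F = 45, adjusted p = 1.1e-05) down to cMDH (F = 6.84, adjusted p = 0.014). On the whole array 65.5% of probe sets passed, so that a difference among the groups was the common state. With T34 against control, 1 member was higher (ME2) and 1 lower (cMDH), where 5.72% of all probe sets were higher and 4.17% lower. The median size of the members' difference was 0.04, against 0.07 for all probe sets.

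With amdS6, 3 members were higher (ME1, gMDH, mdh) and 3 lower (ME2, chMDH, the shared mMDH1 probe set), beside 29.0% and 20.9% of all probe sets. With amdS122, 4 were higher (gMDH, mdh, mMDH1, chMDH) and ME2 alone was lower, beside 30% and 22.0%. The median size of difference was 0.20 with amdS6 and 0.14 with amdS122, against 0.14 and 0.15 for all probe sets. These 3 comparisons share the control arrays. None of the 8 probe sets was called at 2-fold by limma in any of these comparisons, where 0.0897% (T34), 1.67% (amdS6) and 2.14% (amdS122) of all probe sets were called. At an unadjusted p under 0.05 the members counted higher and lower in these comparisons were as many as at the adjusted threshold.

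Between the transformants, 3 members were higher with amdS122 (chMDH and both mMDH1 probe sets), beside 19.4% of all probe sets. In limma's test 0 members were lower, beside 18.7%, although 2 (ME1 and ME2) were lower at an unadjusted p under 0.05. In the mean of both transformants against T34, 4 members were higher (ME1, gMDH, mdh, cMDH) and ME2 was lower, beside 29.3% and 20.0%. In both comparisons 0 members were called at 2-fold in limma's test, beside 0.717% and 1.98%. With the transformants taken one at a time against T34, 7 members passed in either direction with amdS6 and 7 with amdS122, beside 45.7% and 48.9% of all probe sets. These counts of 7, and the 4 members higher in the mean of both transformants, include cMDH, whose signals were at the level of background.

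**Figure D4:**
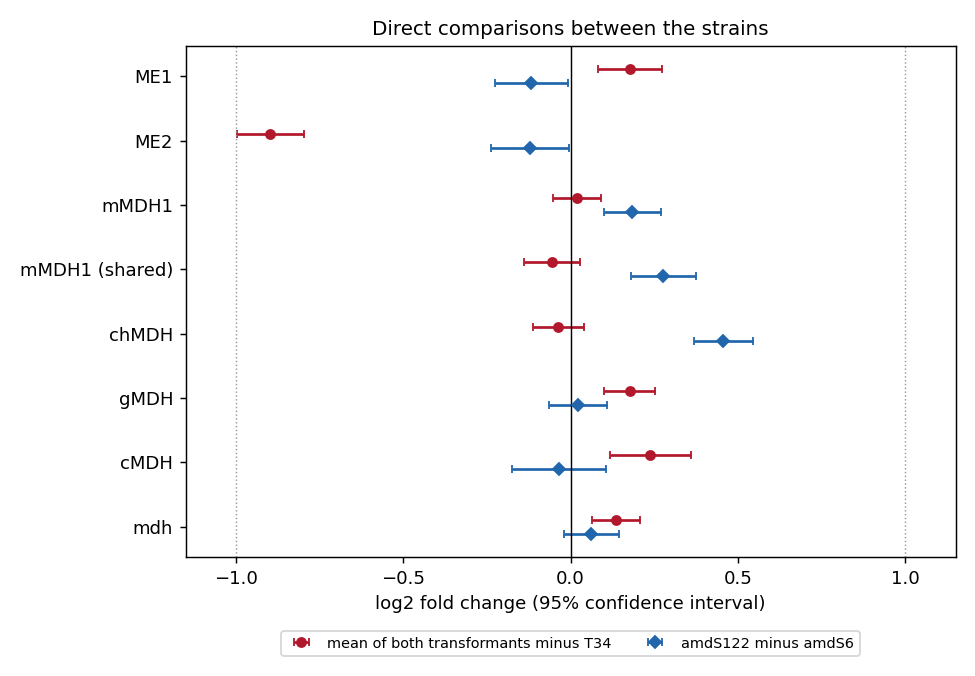
Log2 fold change of the 8 probe sets between the fungal strains, as the mean of both transformants minus T34 and as amdS122 minus amdS6, with 95% confidence intervals; the dotted lines mark 2-fold. ME2 stood at -0.90 against T34 and chMDH at 0.46 between the transformants, where its mean difference from T34 was -0.04.

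The genes with a symbol whose signal followed ME2 most closely over the 12 arrays were ACO4, a 1-aminocyclopropane-1-carboxylate oxidase of ethylene synthesis (Pearson's r = 0.980), PT1, a phosphate transporter that was also on the root marker list (0.972), and LOC544153 (0.967). For chMDH they were CPA (0.970), the invertase LIN8 (0.970) and IMP3, an inositol monophosphatase (0.964). These are the highest of 901 probe sets compared, and the 12 points share 4 group means. Within groups the correlations were 0.43, 0.40 and 0.28 for ME2 and 0.53, 0.07 and -0.43 for chMDH.

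Phosphoenolpyruvate carboxylase (PEPC) makes oxaloacetate from phosphoenolpyruvate, upstream of malate dehydrogenase. Probe sets for PEPC and its kinases differed from controls with the sign opposite to ME2 in each strain. The list held 4 probe sets. The array annotation names 2 of them PPCK1 and PPCK2, kinases that activate PEPC, and 2 are described by the study as PEPC. The fold changes of PPCK1 match those of a probe set that the study describes as phosphoenolpyruvate carboxykinase. The array annotation and the study thus name that probe set as different enzymes. All 4 were lower with T34 than in controls and all 4 higher with either transformant. PPCK1 read 6.72 to 6.76 in controls, 5.22 to 5.56 with T34, 7.94 to 8.04 with amdS6 and 8.79 to 8.90 with amdS122. No group of PPCK1 overlapped another, and its differences from controls were -1.34, 1.25 and 2.1 in the order T34, amdS6 and amdS122. The PEPC probe set A differed by -0.83, 1.13 and 2.04, and the B probe set by -0.79, 1.05 and 1.87. PPCK2 differed by -0.42, 0.83 and 1.08.

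A probe set described as a dicarboxylate transporter, a class of carriers that moves malate across membranes, was the steepest faller of the lists. It read 10.87 to 10.98 in controls, 10.68 to 10.77 with T34, 9.06 to 9.14 with amdS6 and 8.71 to 8.88 with amdS122. It was therefore lower in all comparisons with controls, by 1.16-fold with T34, 3.59-fold with amdS6 and 4.50-fold with amdS122. The PEPC, transporter and nitrate reductase probe sets, and the one that PPCK1 matches, were described by the study because of their change on these same arrays. Neither their direction, including the sign opposite to ME2, nor their size is therefore independent evidence. Their size is not comparable with that of members taken whole. The TCA cycle list held only 1 probe set, SCOA, a subunit of succinyl-CoA ligase, and so does not stand for the cycle. SCOA was higher with T34 (0.16) and lower with amdS6 (-0.46) and amdS122 (-0.17), the same signs as ME2.

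Of 5 probe sets for nitrate and ammonium assimilation, T34 plants had 1 higher and 2 lower, amdS6 plants 2 in each direction, and amdS122 plants 2 higher and 1 lower. Nitrate reductase differed from controls by -0.34 with T34, 1.01 with amdS6 and 1.41 with amdS122. gdh1, a glutamate dehydrogenase, differed by 0.18, 0.26 and -0.36, so that, like chMDH, it lay on opposite sides of the controls in the transformants, in the reverse order. The second gts1 probe set lay on opposite sides in the order of chMDH, with -0.28 for amdS6 and 0.20 for amdS122, and its -0.12 with T34 did not pass. The differences of the first gts1 probe set were -0.35, -0.49 and -0.03, of which the last did not pass.

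**Figure D5:**
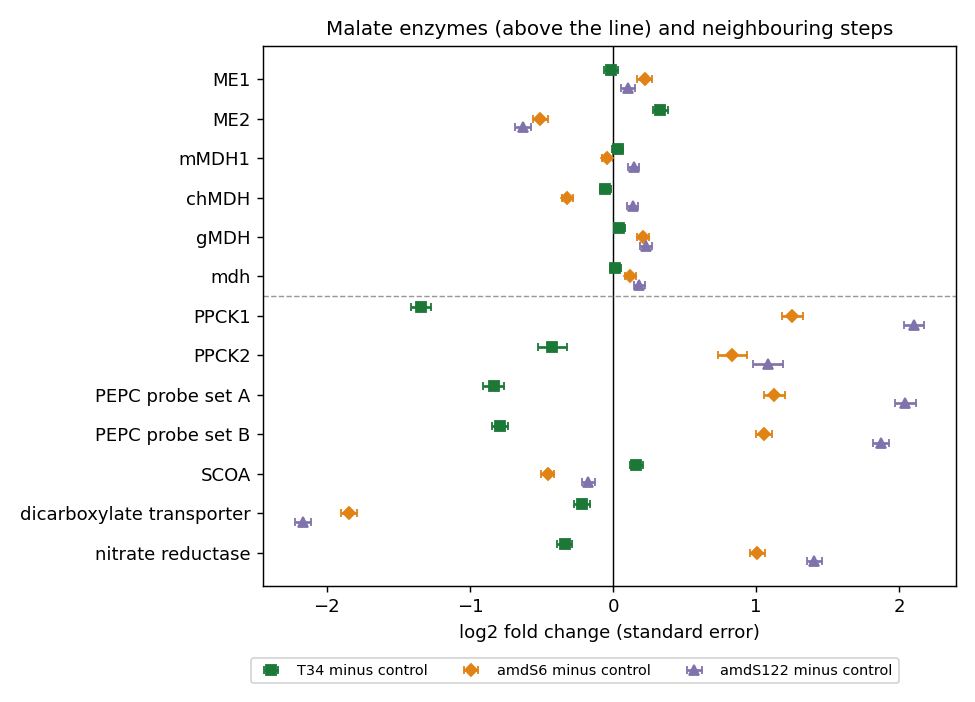
Log2 fold change against control, with standard errors, of 6 member probe sets (above the dashed line) and of probe sets for neighbouring steps (below) after seed treatment with T34, amdS6 or amdS122. The PPCK and PEPC probe sets spanned -1.34 to 2.1 and the members -0.63 to 0.33, with ME2 opposite in sign to PPCK1 in every strain. PPCK1 matches a probe set that the study reported for its change, as phosphoenolpyruvate carboxykinase. The PEPC probe sets were also chosen by the study for their change.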

How the data were processed

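RNA from aerial parts was hybridised to 12 Affymetrix tomato arrays, 3 per group, each a pool of 5 plants. The files hold log2 values as deposited by the authors, who summarised probes with RMA (Affymetrix Expression Console); versions are not given in the sources used here. RMA quantile-normalizes the arrays, which assumes similar signal distributions. The 10038 tomato probe sets were fitted in limma 3.58.1 (R 4.3.3), with 1 mean per group over all 12 arrays, no filter on dim probe sets and no block. Benjamini-Hochberg adjustment ran over all 10038 within a comparison. The methods' SAM analysis was not run, and a moderated F test over the 4 groups took its place. Precision is limited by the 3 arrays per group (median SD within groups 0.066).

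Members and lists were chosen with earlier results of these data known. All member probe sets were named, with up to 4 probe sets per neighbouring list by size of change and, for the 2 members of widest range, the 3 probe sets of highest correlation. Within-array differences and each transformant against T34 were added after seeing the data. Code was tested on simulated data. Alternatives were other scalings, filters, variance models, covariates, the replicate number as a block and leaving out each array.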

Additional observations from a re-analysis of the deposited data

How the results depend on the processing

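Apart from leaving out arrays, the 5 main comparisons gave 395 values of member differences under alternative settings, of which 329 kept their direction and side of the threshold, and leaving out 1 array kept 459 of 480. Scaling on the hybridisation spikes had the widest effect. It shifted the median of all probe sets by 0.08 for T34, 0.30 for amdS6, 0.02 for amdS122, -0.28 for amdS122 minus amdS6 and 0.08 for the transformants minus T34. Under it 0 members were higher and 0 lower with T34, 5 higher and 0 lower with amdS6, 0 higher with amdS122, and 0 higher and 3 lower in amdS122 minus amdS6. The mMDH1 difference turned to 0.26 for amdS6 minus control (adjusted p = 0.094) and to -0.0904 for amdS122 minus amdS6, and the shared mMDH1 probe set turned to 0.11 for amdS6. ME2 then differed by 0.40 with T34 (adjusted p = 0.170) and -0.21 with amdS6 (adjusted p = 0.169), but by -0.61 with amdS122 and -0.81 for the transformants against T34. Relative to the median of all probe sets under that scaling, mMDH1 stood at -0.06 with amdS6 and chMDH at -0.33, and ME2 at 0.33 with T34 and -0.52 with amdS6.

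With the 3′ over 5′ signal as a covariate, 0 members were lower with T34, 0 higher with amdS6 and 0 higher with amdS122. Against T34 the transformants then had 2 members higher, gMDH and cMDH, the latter at the level of background, and 1 called, ME2 at -1.03. In amdS122 minus amdS6, 2 members were lower with that covariate, 2 without the dimmest probe sets, 2 with a variance trend and robust moderation, and 1 with array weights, where 2 were lower against T34. The single lower member with T34, cMDH, was lost (0) without dim probe sets and at an adjusted p under 0.05. The cause of these changes was not tested.

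Leaving out 1 array gave 0 to 1 lower with T34, 4 to 6 higher with amdS122, 0 to 2 lower in amdS122 minus amdS6 and 1 to 2 lower against T34. The count of 6 came without amdS6 replicate 1, which added ME1 and the shared mMDH1 probe set, the latter also being the added lower member against T34. ME1 also passed for amdS122 without T34 replicate 3, amdS6 replicate 2 or amdS122 replicate 1, and its difference from amdS6 passed without T34 replicate 3 or amdS6 replicate 2. ME2 in amdS122 minus amdS6 passed without amdS6 replicate 2 or amdS122 replicate 3. Whichever array was left out, ME2 kept its direction and its pass at the adjusted p against controls with T34, amdS6 and amdS122.

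No label ties same-numbered arrays to a shared batch or day. Their deviations from group means correlated with a median r of 0.17 and over 0.1 in 10 of 18 pairs, against a median of -0.09 and 8 of 36 for arrays of different number, and the lowest same-numbered pair had r = -0.05. All 3 pairs of control and T34 were over 0.1 (0.17 to 0.55), and the block left the 1 higher and 1 lower member of that comparison in place. With the replicate block 1 member, ME2, was lower in amdS122 minus amdS6 (adjusted p = 0.070), and no other member difference changed its side of the threshold.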
